A study of Mus musculus with 12 samples.

Results

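The dual-specificity MAP kinase phosphatases are 10 genes, Dusp1, Dusp2, Dusp4, Dusp5, Dusp6, Dusp7, Dusp8, Dusp9, Dusp10 and Dusp16, out of 35241 gene symbols in the deposited table. They were taken by name, and all transcripts listed for a gene were summed. The 10 genes had 27 transcripts. Of the genes, 9 had a mean of at least 0.5 and entered the tests over 15880 genes. Dusp9 lay below that mean. The samples were full-thickness distal colon of 12 mice. In 6 Spry2IEKO mice (Vil1::Cre;Spry2-f/f), both copies of Spry2 were floxed and Cre, driven by the villin promoter, deletes Sprouty2 in the intestinal epithelium. The other 6, Spry2FF, were littermates with the same floxed alleles and without Cre. The labels give an age of 6 weeks in one place and 8 weeks in another. Litters A and B each held 3 mice of each genotype, and the Spry2IEKO group held 1 male and 5 females against 3 males and 3 females in the Spry2FF group. Because Cre acts in the epithelium and the RNA came from the whole wall, fewer cells of a type and less RNA per cell cannot be told apart here.

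MAP kinases are switched on by phosphorylation of a threonine and a tyrosine in their activation loop, and these phosphatases switch them off by removing both phosphates. Each carries a docking domain that sets which kinases it binds. Some act on ERK, some on the stress kinases JNK and p38, and some, such as Dusp4, on kinases of both kinds. Dusp1, Dusp2, Dusp4 and Dusp5 encode nuclear enzymes that are induced by growth factors or stress. Dusp6, Dusp7 and Dusp9 encode cytoplasmic enzymes selective for ERK, and Dusp8, Dusp10 and Dusp16 encode enzymes of both compartments that act on JNK and p38. Several are themselves induced through the kinases that they switch off. Sprouty2 is a cytoplasmic inhibitor of growth factor signaling to ERK, and Dusp6 is used in many tissues as a readout of that pathway.

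The deposited values are TPM (transcript abundance per length and sequencing output) that were scaled once more between mice before deposit, and they are called normalized TPM below. They are set per transcript length, so levels of different genes can be compared. Their totals ran from 918816 to 1069158 per mouse, and the read depth of each library is unknown from them. Spry2 lay between 22.8 and 32.3 in Spry2FF mice and between 18.5 and 22.5 in Spry2IEKO mice, and the nearest values of the groups, 22.5 and 22.8, lay close together. Such a complete order was seen for 0.214% of the genes tested, and the Spry2 difference, -0.45 on the log2 scale, did not pass (adjusted p = 0.16 by limma). All 11 epithelial markers were listed above 0, and their sum ran from 8348 to 12240. The 10 smooth muscle markers summed to between 3467 and 8500, so both layers of the wall were in each sample. B cell markers summed to between 4.89 and 464, and fat markers to between 68.9 and 1241.

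The promoters of 8 of the 10 genes were matched by symbol in RefSeq on GRCm38.p6, each covering 250 bases before and 50 after the annotated start. Dusp4 and Dusp9 had no entry. Of these windows, 4 are shown, each 5′ to 3′ along the strand of its gene. The window of Dusp6 is chr10:99262981-99263280 on the plus strand, that of Dusp1 chr17:26508423-26508722 on the minus strand, that of Dusp5 chr19:53528895-53529194 on the plus strand and that of Dusp8 chr7:142095235-142095534 on the minus strand. Dusp6 is shown as the gene with the lowest p between genotypes, and the other 3 because they hold the less common motifs. Capitals mark matches on either strand to the motifs searched, which were a TATA box (TATAAA), a GC box (GGGCGG), an ETS site (CCGGAAGT), a cyclic AMP response element (TGACGTCA), an AP-1 site (TGANTCA) and the serum response element (CArG box).
Dusp6: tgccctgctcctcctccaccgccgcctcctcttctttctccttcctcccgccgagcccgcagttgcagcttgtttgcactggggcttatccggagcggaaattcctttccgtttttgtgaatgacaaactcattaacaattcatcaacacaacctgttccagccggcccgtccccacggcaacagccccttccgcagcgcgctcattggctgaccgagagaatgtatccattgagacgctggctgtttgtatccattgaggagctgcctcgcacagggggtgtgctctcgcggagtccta
Dusp1: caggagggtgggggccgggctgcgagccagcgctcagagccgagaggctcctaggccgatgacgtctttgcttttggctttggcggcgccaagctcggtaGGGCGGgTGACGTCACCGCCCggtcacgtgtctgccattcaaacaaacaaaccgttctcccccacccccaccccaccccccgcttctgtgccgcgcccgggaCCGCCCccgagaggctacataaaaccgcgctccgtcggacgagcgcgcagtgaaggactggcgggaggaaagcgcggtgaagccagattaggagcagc
Dusp5: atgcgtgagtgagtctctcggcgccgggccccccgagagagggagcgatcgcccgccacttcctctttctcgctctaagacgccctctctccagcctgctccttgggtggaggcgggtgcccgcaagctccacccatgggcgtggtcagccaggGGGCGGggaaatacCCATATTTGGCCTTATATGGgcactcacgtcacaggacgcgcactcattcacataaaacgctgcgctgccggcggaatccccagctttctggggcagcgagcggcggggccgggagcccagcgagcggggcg
Dusp8: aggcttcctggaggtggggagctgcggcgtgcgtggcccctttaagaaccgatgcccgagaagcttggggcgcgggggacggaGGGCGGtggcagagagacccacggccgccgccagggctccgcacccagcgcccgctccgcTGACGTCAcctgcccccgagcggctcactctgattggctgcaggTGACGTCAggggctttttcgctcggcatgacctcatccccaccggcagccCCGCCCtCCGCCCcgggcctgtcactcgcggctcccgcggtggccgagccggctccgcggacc

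A GC box stood in 7 of the 8 windows and in 35.7% of all 32851 promoters of this length, and Dusp6 was the one without it. None of the 6 motifs was found in the Dusp6 window, which also had the lowest share of G and C, 57.3%, against up to 78.7% in Dusp7. The cyclic AMP response element stood once in Dusp1 (bases 108 to 115 of the window) and at 2 places in Dusp8 (from base 144 and from base 188), and 1.79% of all promoters hold it. Dusp5 held 2 serum response elements end to end, CCATATTTGG at bases 169 to 178 and CCTTATATGG at bases 179 to 188, a motif found in 1.63% of all promoters. The TATA, ETS and AP-1 letters were in none of the 8, against 13.6%, 3.89% and 7.81% of all promoters. The palindrome of the cyclic AMP response element reads the same on both strands and was counted once per place.

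Dusp6, the cytoplasmic ERK phosphatase, had the highest mean of the family, 30.9 normalized TPM over the 12 mice, and exceeded Dusp16, the second, in all 12. Dusp16, a JNK and p38 phosphatase that shuttles between nucleus and cytoplasm, averaged 21.04 and was above Dusp1 in 10 of 12 mice. Dusp1, the immediate early nuclear phosphatase, averaged 16.5, and its range lay wholly above that of Dusp5. The nuclear ERK phosphatase Dusp5 averaged 7.03, and the cytoplasmic Dusp7 4.93. Neighbours further down did not separate mouse by mouse. Dusp7 was above Dusp4 in 9 of 12 mice, Dusp4 (mean 3.76) above Dusp10 (3.17) in 7, Dusp10 above Dusp8 (2.77) in 8, and Dusp8 above Dusp2 (1.81) in 8. Dusp9, the cytoplasmic ERK phosphatase known from placenta and kidney, was lowest at 0.172 and was under Dusp2 in 11 of 12.

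The genes also differed in their spread between mice. The coefficient of variation over the 12 mice was 10.9% for Dusp16, 16.9% for Dusp5, 17.3% for Dusp1, 17.6% for Dusp10 and 21.3% for Dusp6. It was 42.3% for Dusp4 and 119.5% for Dusp2, whose highest and lowest mice were 7.42 and 0.202.

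**Figure D1:**
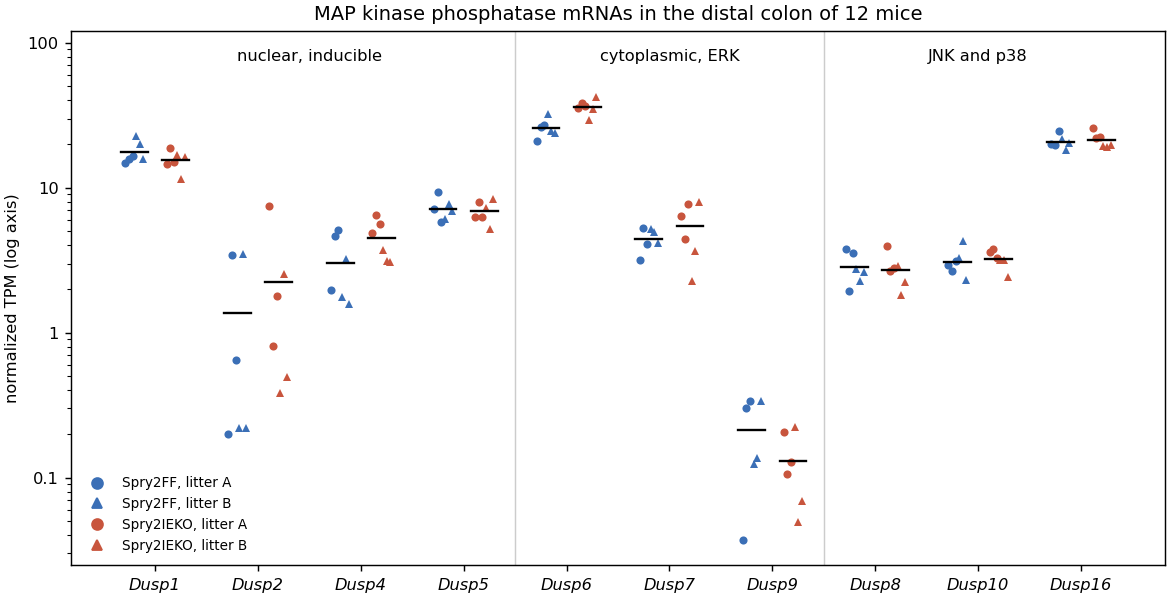
Normalized TPM of the 10 phosphatase genes on a log axis, 1 point per mouse, with Spry2FF mice in blue, Spry2IEKO mice in red, circles for litter A, triangles for litter B and a bar at the mean of each genotype. Dusp6 is highest, with 5 of 6 Spry2IEKO mice above all Spry2FF mice, and the points of Dusp2 run from 0.202 to 7.42.

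The first comparison asked whether phosphatase mRNA differed in colons of mice bred to lack epithelial Sprouty2, an inhibitor of the pathway that several of these enzymes close. Dusp6 was the gene with the clearest difference, with 5 of 6 Spry2IEKO mice above all Spry2FF mice, but none of the 9 tested genes passed after adjustment over all genes. In the main fit, which held no term for litter, every other gene of the 9 had an interval that included 0. With litter as a term Dusp4 also had an unadjusted p under 0.05 by limma, and none of the 9 passed. In limma fits of log2(normalized TPM + 0.5), adjusted by the Benjamini-Hochberg method to a threshold of 0.05, 5 of 15880 genes passed (0.0315%). At an unadjusted p under 0.05 there were 981 genes (6.18%), and of the 9 only Dusp6 was among them. The fitted difference was above 0 for 6 of the 9 and below 0 for 3, with a median of 0.07 on the log2 scale against 0.01 over all genes tested.

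Dusp6 lies on chromosome 10 (99263231 to 99267489, plus strand, GRCm38 in GENCODE M21). In Spry2FF mice it was 21.02, 26.1 and 27.0 in litter A and 32.1, 24.5 and 23.9 in litter B. In Spry2IEKO mice it was 35.5, 38.4 and 36.6 in litter A and 29.4, 34.6 and 42.0 in litter B. The 3 Spry2IEKO mice of litter A were all above the 3 Spry2FF mice of that litter, whereas the groups overlapped in litter B. The overlap came from 2 males, the only male of the Spry2IEKO group at 29.4 and a Spry2FF male at 32.1. In all, 5 of 6 Spry2IEKO mice were above every Spry2FF mouse, a pattern that 1.19% of the genes tested showed. Complete separation was seen for 5.83% of genes in litter A, for 4.79% in litter B and, over all 12 mice, for 0.189% with Spry2IEKO mice higher, and no phosphatase gene was among the last. The means were 36.1 ± 4.18 and 25.8 ± 3.72 (SD, n = 6 each). The fitted log2 fold change was 0.48 with a 95% interval of 0.26 to 0.71, and it did not pass (adjusted p = 0.25 by limma). Exact permutation of the mice (two-sided, without regard to litter or sex) gave an unadjusted p of 0.00433 and an adjusted p of 0.674. The difference was 0.57 within litter A and 0.39 within litter B, and the term for their difference was -0.19 (adjusted p = 0.998 by limma).

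The Dusp6 difference was also present without the males, at 0.56 among the 5 Spry2IEKO and 3 Spry2FF females (adjusted p = 0.314 by limma). With sex as a term it was 0.45, below the main fit, with an adjusted p of 0.716 by limma. Over all settings the adjusted p of Dusp6 by limma ran up to 0.954, within litter B alone. Leaving out the single Spry2IEKO male, replicate 8, gave 0.54 with an adjusted p of 0.0946 by limma, the lowest. Smooth muscle markers summed to 8500 in that male and to between 3467 and 5538 in the other Spry2IEKO mice. Of the 11 epithelial markers, 9 had fitted differences below 0 between genotypes, with a median of -0.15 and none past the threshold. At an unadjusted p under 0.05, 6 of the 11 were lower, against 3.17% of all genes. The part of either tissue in the Dusp6 values was not tested.

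Dusp7, the closest relative of Dusp6 in location and substrate, ran from 3.15 to 5.25 with a median of 4.55 in Spry2FF mice. It ran from 2.26 to 7.96 with a median of 5.42 in Spry2IEKO mice. The 3 highest values belonged to Spry2IEKO mice and so did the lowest, and limma gave a log2 fold change of 0.16 ± 0.256 (standard error) with an adjusted p of 0.938. Its coding transcripts made up 88.2% of Dusp7 in Spry2FF and 71.4% in Spry2IEKO mice, and for coding transcripts alone the difference was -0.16, with the opposite sign. Dusp9 stayed between 0.0374 and 0.339 in all 12 mice, and without the filter on low values its difference was -0.17 (adjusted p = 0.866 by limma).

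Among the nuclear genes, Dusp1 was 14.7 to 22.6 (median 16.1) in Spry2FF mice and 11.5 to 18.7 (median 15.7) in Spry2IEKO mice. The groups overlapped nearly throughout, and limma gave a log2 fold change of -0.17 ± 0.13 (standard error) with an adjusted p of 0.873. Dusp5 was 5.83 to 9.29 (median 7.03) in Spry2FF mice and 5.20 to 8.42 (median 6.74) in Spry2IEKO mice, with a difference of -0.05 (standard error 0.138, adjusted p = 0.967 by limma).

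Dusp4, a nuclear phosphatase of ERK and JNK on chromosome 8 (34807297 to 34819894, plus strand), was 1.59 to 5.08 (median 2.59) in Spry2FF mice and 3.08 to 6.51 (median 4.29) in Spry2IEKO mice. Only 2 Spry2IEKO mice were above all Spry2FF mice, while 3 Spry2FF mice were below all Spry2IEKO mice. Its log2 fold change of 0.56 had a 95% interval of -0.05 to 1.16 (adjusted p = 0.826 by limma). It was 0.57 within litter A and 0.54 within litter B, and with litter as a term the adjusted p was 0.538 by limma.

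The JNK and p38 phosphatases all had fitted differences near 0. Dusp16 was 18.1 to 24.6 (median 20.2) in Spry2FF mice and 19.1 to 25.7 (median 20.8) in Spry2IEKO mice, and its 95% interval of -0.16 to 0.24 on the log2 scale was the narrowest of the 9. Dusp10, a phosphatase of JNK and p38 in immune and epithelial cells, differed by 0.07 (95% interval -0.25 to 0.39) and Dusp8 by -0.04 (95% interval -0.44 to 0.36). These intervals bound the differences and do not show that the levels were equal.

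**Figure D2:**
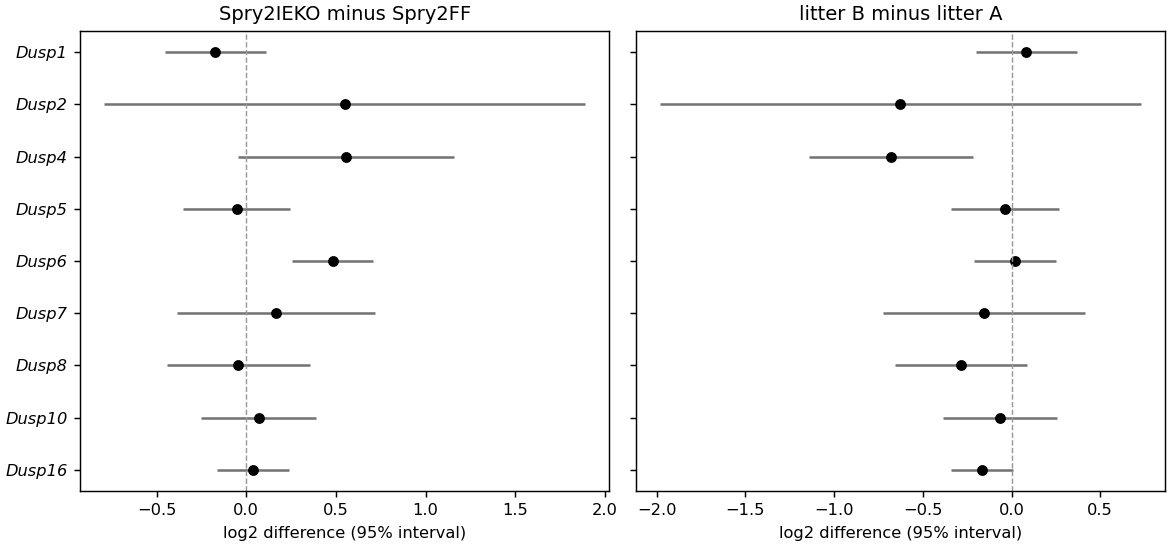
Fitted log2 differences of the 9 tested genes with 95% intervals by limma, Spry2IEKO minus Spry2FF on the left and litter B minus litter A on the right. The interval of Dusp6 lies above 0 between genotypes (0.26 to 0.71) and that of Dusp4 below 0 between litters (-1.14 to -0.22), before adjustment over all genes.

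Dusp2, the phosphatase known from activated immune cells, varied most and did so across both genotypes. The gene lies on chromosome 2 (127336159 to 127338376, plus strand). It was 0.202, 3.43 and 0.65 in Spry2FF mice of litter A and 0.221, 3.48 and 0.219 in those of litter B. In Spry2IEKO mice it was 7.42, 0.806 and 1.80 in litter A and 0.385, 2.56 and 0.495 in litter B. Both genotypes held mice at high and at low levels, and the log2 fold change of 0.55 had a standard error of 0.621 (adjusted p = 0.915 by limma).

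The mice with high Dusp2 were those with high immune markers. The 5 mice with the highest Dusp2 were also the 5 with the highest sums of B cell, T cell and myeloid markers. The 10 B cell markers, all listed above 0, summed to between 118 and 464 in these 5 mice and to between 4.89 and 20.1 in the other 7. In replicate 4 of the Spry2IEKO group, the highest for Dusp2, the sums were 464 for B cells, 82.1 for T cells and 577 for myeloid cells. None of the B cell, T cell or myeloid markers passed between genotypes, although all 10 tested B cell genes, all 9 T cell genes and all 5 myeloid genes had fitted differences above 0, with medians of 1.11, 0.64 and 0.34. The part of these cells in the Dusp2 values was not tested. Of all genes tested, those whose log2 values followed Dusp2 most closely over the 12 mice were Nckap1l, an actin regulator of blood cells (Pearson's r = 0.994), H2-Q7, an MHC class I gene (r = 0.993), and H2-Aa, an MHC class II chain of antigen-presenting cells (r = 0.992). These mice fall into a high and a low set, and the 3 genes were picked as the highest of 15880, so the values describe these libraries alone.

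**Figure D3:**
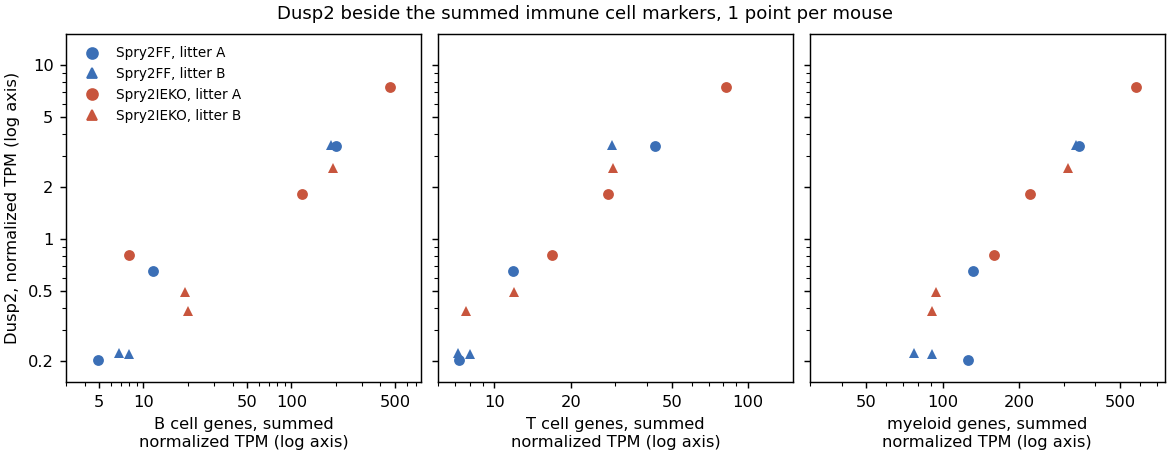
Dusp2 against the summed markers of B cells, T cells and myeloid cells, all in normalized TPM on log axes, 1 point per mouse. The 5 mice with the highest Dusp2, from both genotypes and both litters, are the 5 with the highest marker sums in each panel.

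For Dusp4 the genes most alike were Gcnt3, an enzyme of mucin glycosylation (r = 0.93), Zc3h12d (r = 0.911) and Ephx1, an epoxide hydrolase (r = 0.91). For Dusp6 they included Trgv2 (r = 0.896) and Sephs2, an enzyme of selenoprotein synthesis (r = 0.879). For Dusp7 they were Slc44a3 (r = 0.908), Pmpcb (r = 0.907), a mitochondrial processing peptidase, and Smim6 (r = 0.878). The genes most alike for Dusp1 were Gm48930 (r = 0.843), Arhgap33 (r = 0.831) and Calb1 (r = 0.823), a calcium-binding protein, and for Dusp5 they were Fancf (r = 0.845), Snupn (r = 0.832) and Ficd (r = 0.808). Dusp8 went with Pard6a (r = 0.913), Thoc3 (r = 0.863) and Arhgef33 (r = 0.86), Dusp10 with Xkr5 (r = 0.935), Ticam2 (r = 0.877) and Hs3st1 (r = 0.856), and Dusp16 with B3glct (r = 0.888), Dcp2 (r = 0.881), an mRNA decapping enzyme, and Exoc3l2 (r = 0.869). Within the family, the pair most alike was Dusp8 and Dusp16 (r = 0.705), both phosphatases of JNK and p38, followed by Dusp6 and Dusp7 (r = 0.544), both cytoplasmic phosphatases of ERK, and by Dusp2 and Dusp4 (r = 0.522). Sharing a class did not go with a high value throughout. The other pairs of JNK and p38 phosphatases had 0.16 (Dusp8 and Dusp10) and 0.156 (Dusp10 and Dusp16). Pairs of nuclear genes ran from -0.308 (Dusp1 and Dusp2) to 0.522. Dusp4 and Dusp6, of different classes, had 0.467. The lowest value was -0.42, for Dusp5 and Dusp16. All of these are over the same 12 mice and share their scaling.

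The second comparison set litter B against litter A, with genotype as a term. There were only 2 litters, and the 6 mice of each counted as replicates. The p-values between litters, here and below, therefore measure spread between mice, not between litters. The sample labels also carry a different prefix for each litter, so litter cannot be told apart from any set that this prefix marks. More genes passed than between genotypes, with 696 of 15880 past the threshold by limma (4.38%), 171 higher and 525 lower in litter B. With all totals set equal this split was 105 and 1351, and with quantile normalization 203 and 259. None of the 9 phosphatase genes passed. At an unadjusted p under 0.05 there were 3475 genes (21.9%), and of the 9 only Dusp4 was among them. The fitted difference was below 0 for 7 of the 9, with a median of -0.15, against -0.05 over all genes. Among all genes, 14.8% were lower in litter B at an unadjusted p under 0.05. Mice of litter A were all above those of litter B for 2.94% of genes and all below for 0.781%, and no phosphatase gene was among either.

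Dusp4 averaged less in litter B within both genotypes. In litter A it was 1.96, 4.61 and 5.08 in Spry2FF and 4.88, 6.51 and 5.61 in Spry2IEKO mice. In litter B it was 1.77, 3.22 and 1.59 in Spry2FF and 3.70, 3.10 and 3.08 in Spry2IEKO mice. Hence 5 of 6 mice of litter A were above every mouse of litter B, as for 6.68% of all genes, and the exception was Spry2FF replicate 2, a male. Over all 12 mice the log2 difference was -0.68 ± 0.212 (standard error), with an adjusted p of 0.0875 by limma. It was -0.67 in Spry2FF mice alone and -0.70 in Spry2IEKO mice alone. Without replicate 2 of the Spry2FF group it was -0.85 with an adjusted p of 0.039 by limma, and with totals set equal -0.75 with an adjusted p of 0.0445 by limma, both past the threshold. The other alternatives did not pass, with adjusted p by limma of up to 0.494, and quantile normalization gave -0.57. Equal totals also called more genes lower in litter B, as given above. Among cell markers, fat markers summed to 690 and 1241 in 2 Spry2IEKO mice of litter A and to between 68.9 and 106 in litter B, and the myeloid gene Cd68 was lower in litter B by a log2 difference of -0.87 (adjusted p = 0.0257 by limma). Their part in the Dusp4 difference was not tested.

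The other genes lay closer together. Dusp16 was 19.6 to 25.7 (median 22.1) in litter A and 18.1 to 21.8 (median 19.5) in litter B, with a log2 difference of -0.17 (standard error 0.0804, adjusted p = 0.247 by limma). Dusp8 was 1.95 to 3.95 (median 3.18) in litter A and 1.82 to 2.86 (median 2.44) in litter B, with a difference of -0.28 (adjusted p = 0.354 by limma). Dusp6 averaged 30.8 and 31.1 in litters A and B, with a difference of 0.02 (95% interval -0.21 to 0.25). The term for a genotype difference that changed with litter passed for 2 of 15880 genes (0.0126%) and for none of the 9, and it was -0.84 ± 1.27 (standard error) for Dusp2 and -0.70 ± 0.503 for Dusp7, the largest of the 9.

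The transcripts listed for each gene were then compared one by one, since a sum can hide a difference in form. The 17 phosphatase transcripts with a mean of at least 0.5 were fitted with all 45448 such transcripts, of which 1 passed between genotypes (0.0022%) and 2250 had an unadjusted p under 0.05 (4.95%). None of the 17 passed, and 3 had an unadjusted p under 0.05, 2 of Dusp6 and 1 of Dusp1. For Dusp6, the main coding transcript ENSMUST00000020118.4 was 11.99 to 22.2 (median 16.1) in Spry2FF mice and 20.4 to 28.3 (median 23.6) in Spry2IEKO mice. Of the latter, 5 of 6 were above all Spry2FF mice (log2 fold change 0.53, standard error 0.144, adjusted p = 0.877 by limma). The second transcript, ENSMUST00000220218.1, has no coding sequence in the annotation, and it was 0.33 higher (standard error 0.138). The main coding transcript made up 64.0% of Dusp6 in Spry2FF and 66.4% in Spry2IEKO mice, a difference in share whose 95% interval included 0 (-0.33 to 0.64 as a log2 ratio to the rest of the gene). A short coding transcript of Dusp6, ENSMUST00000220291.1, was above 1 normalized TPM in 4 mice only, which were the 4 females of litter B, with 1.82 and 2.77 in Spry2FF and 2.38 and 5.29 in Spry2IEKO mice. It was singled out after its values had been seen, and its litter difference of 1.65 on the log2 scale did not pass (adjusted p = 0.181 by limma).

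Dusp1 (chromosome 17, 26505590 to 26562128, minus strand) was set apart by the make-up of its transcripts. The coding transcript ENSMUST00000025025.6 was 8.39 to 14.6 (median 10.97) in Spry2FF mice and 8.64 to 14.4 (median 12.4) in Spry2IEKO mice, a log2 fold change of 0.07 where the whole gene had -0.17. The transcript ENSMUST00000146077.1, annotated with a retained intron, was 2.93 to 5.63 in Spry2FF mice and 0.877 to 3.30 in Spry2IEKO mice, where the log2 fold change was -0.84 ± 0.248 (standard error), with an adjusted p of 0.952 by limma. The coding transcript made up 56.9%, 67.8%, 68.3%, 64.5%, 71.4% and 63.7% of Dusp1 in the 6 Spry2FF mice. In the 6 Spry2IEKO mice it made up 92.3%, 77.0%, 74.4%, 77.3%, 75.5% and 71.9%. The groups did not overlap, with 71.4% and 71.9% as the nearest values, as for 34 of 39614 transcripts (0.0858%). This feature was singled out after its values had been seen. In a fit of the log2 ratio of each transcript to the rest of its gene, the difference was 0.88 ± 0.294 (standard error) and the adjusted p was 1 by limma, with 1768 of 39614 transcripts (4.46%) at an unadjusted p under 0.05 and 0 past the threshold. How reads shared by overlapping transcripts were divided is part of the authors' estimate and could move these shares.

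Dusp16 (chromosome 6, 134715468 to 134792625, minus strand) was made of 2 main coding transcripts, described here by litter. ENSMUST00000100857.9 was 13.03 to 19.6 (median 16.1) in litter A and 8.41 to 13.7 (median 12.3) in litter B. ENSMUST00000129433.3 was 2.24 to 6.94 (median 4.001) in litter A and 5.13 to 10.3 (median 6.16) in litter B. The first was lower in litter B (log2 difference -0.45, standard error 0.13, adjusted p = 0.105 by limma) and the second higher (0.66, standard error 0.218, adjusted p = 0.141 by limma). Neither passed, while 595 of 45448 transcripts did (1.31%) and 18.3% had an unadjusted p under 0.05. As a share of Dusp16, the second was 9.09% to 27.0% in litter A and 28.3% to 52.3% in litter B, and the mice of the litters did not overlap. Shares of 570 of 39614 transcripts (1.44%) were higher in every mouse of litter B than in every mouse of litter A. The fit of its ratio to the rest of the gene gave 1.13 ± 0.305 (standard error) with an adjusted p of 0.124 by limma, where 17 of 39614 transcripts passed (0.0429%) and 16.3% had an unadjusted p under 0.05. This feature too was singled out after its values had been seen.

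**Figure D4:**
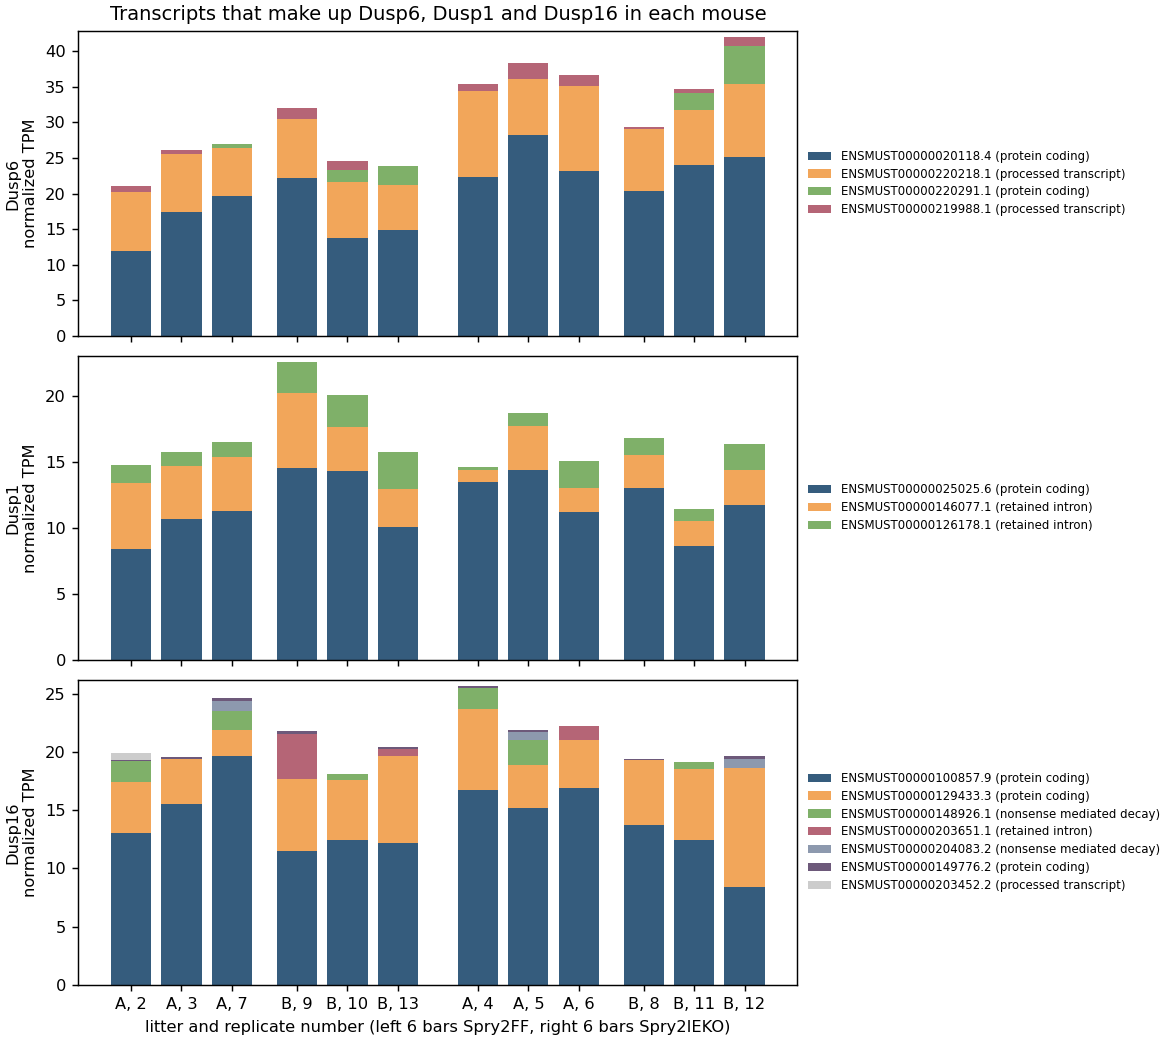
Normalized TPM of the transcripts of Dusp6, Dusp1 and Dusp16, stacked for each mouse, with the 6 Spry2FF mice on the left and the 6 Spry2IEKO mice on the right, each ordered by litter and replicate number. The coding part of Dusp1 is 56.9% to 71.4% of the bar in Spry2FF mice and 71.9% to 92.3% in Spry2IEKO mice.

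The nuclear and cytoplasmic genes were finally set against each other in each mouse, as a description with no test. The nuclear genes Dusp1, Dusp2, Dusp4 and Dusp5 summed to 29.1 ± 4.35 (SD, n = 6) in Spry2FF mice and to 29.1 ± 4.21 (SD, n = 6) in Spry2IEKO mice. The cytoplasmic genes Dusp6, Dusp7 and Dusp9 summed to 30.4 ± 4.34 (SD, n = 6) and to 41.6 ± 6.09 (SD, n = 6). Dusp8, Dusp10 and Dusp16 summed to 26.7 ± 2.63 (SD, n = 6) and to 27.3 ± 3.47 (SD, n = 6). The cytoplasmic sum was above that of every Spry2FF mouse in 5 of 6 Spry2IEKO mice, and in the same 5 mice Dusp6 was. As a share of the whole family, it was 32.3% to 39.0% in Spry2FF mice and 37.3% to 48.7% in Spry2IEKO mice.

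The log2 ratio of the nuclear to the cytoplasmic sum was -0.01, 0.06 and -0.16 in Spry2FF mice of litter A and -0.29, 0.22 and -0.22 in those of litter B. In Spry2IEKO mice it was -0.34, -0.33 and -0.63 in litter A and -0.18, -0.78 and -0.82 in litter B. Only replicate 8, the Spry2IEKO male of litter B, lay within the range of the Spry2FF mice. The genotype means differed by -0.45, and Dusp6 made up most of the cytoplasmic sum. When every gene counted equally, through the mean of its log2 values, the difference was 0.06, with the opposite sign, and without Dusp1 it was -0.18.

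**Figure D5:**
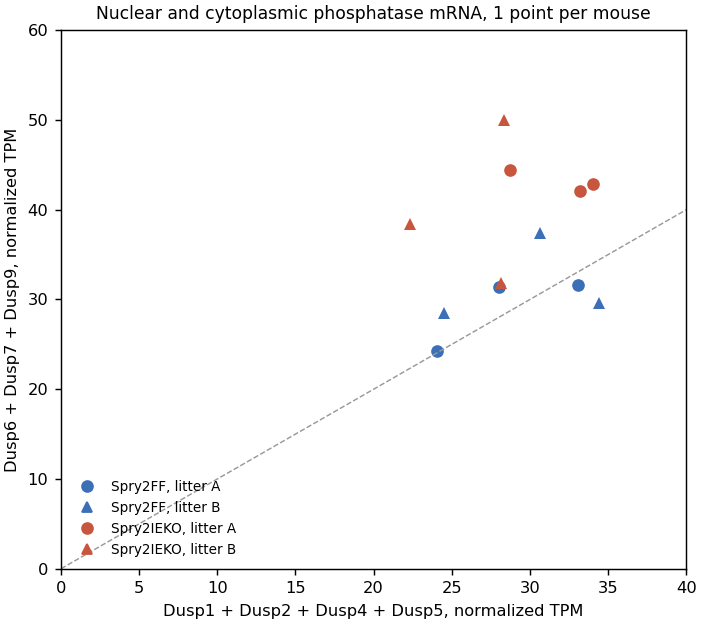
Sum of the cytoplasmic genes (Dusp6, Dusp7 and Dusp9) against the sum of the nuclear genes (Dusp1, Dusp2, Dusp4 and Dusp5) in normalized TPM, 1 point per mouse, with a dashed line where both are equal. The nuclear sums of the genotypes overlap, and 5 of 6 Spry2IEKO mice lie above all Spry2FF mice on the cytoplasmic axis.

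The kinases and the other genes of the pathway were taken from lists. Of 10 MAP kinases, the substrates of this family, none passed between genotypes and Mapk3, which encodes an ERK, was lower in litter B (271 ± 7.27 against 311 ± 15.9, SD, n = 6 each, log2 difference -0.20, adjusted p = 0.0382 by limma). Of 20 transcripts known to follow ERK signaling, 1 passed between genotypes, the Ets factor Etv4, which was 23.8 ± 1.88 in Spry2IEKO and 12.1 ± 3.43 in Spry2FF mice (SD, n = 6 each, log2 fold change 0.98, adjusted p = 0.043 by limma). Of 25 alternatives in limma, the Etv4 difference passed in 4 and missed the threshold in 21, sex as a term among them (adjusted p = 0.169 by limma), while the log2 fold change stayed between 0.913 and 1.098. The list divided into 11 above 0 and 9 below, with a median of 0.10. None of 19 tested immediate early genes, which respond to several MAP kinases, passed in either comparison. The lowest p among them were those of the nuclear receptor Nr4a1 between genotypes (log2 fold change 0.72, adjusted p = 0.694 by limma) and of Klf4 between litters (0.20, adjusted p = 0.167 by limma). Of 17 tested other dual-specificity phosphatases and MAP kinase tyrosine phosphatases, none passed. The lowest p were those of the slingshot phosphatase Ssh2 (log2 difference -0.35, adjusted p = 0.0539 by limma) and Dusp11, an RNA phosphatase (0.37, adjusted p = 0.0623 by limma), both between litters. Among cell type markers, the epithelial cadherin Cdh1 was lower in litter B (log2 difference -0.22, adjusted p = 0.0282 by limma), whereas 7 of the 11 epithelial markers had fitted differences above 0, with a median of 0.12. In the same 25 alternatives for litter, the differences of Mapk3, Cdh1 and Cd68 passed in 10, 13 and 14. In the other marker lists no gene but Cd68 passed in either comparison. The lowest p were those of Cd22 (1.39) between genotypes for B cells, Cd3g (0.95) between genotypes and Cd4 (-0.72) between litters for T cells, and Acta1 (-0.71) and Tnnc2 (-0.98) between genotypes for skeletal muscle. They were those of Fabp4 (-1.82) and Retn (-2.47) for fat and Cnn1 (-0.27) and Lmod1 (-0.23) for smooth muscle, all between litters, and of Uchl1 (-0.47, litters) and Tubb3 (-0.42, genotypes) for enteric neurons, all as log2 differences.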

How the data were processed

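RNA of the distal colon of 12 mice was compared by genotype and by litter, both taken from the labels. Per the paper's methods the authors ran kallisto on the reads, and its reporting summary gives v0.44.0. The submitters' processing notes name mm10, CASAVA and sleuth. The deposited values per transcript are a signal, namely TPM scaled once more between mice, and hold no read depth. The labels describe paired-end reads of stranded mRNA libraries and the paper single-end reads. The deposited p-values and q-values of the authors' own test per transcript were not used.

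Of 113974 entries, 781 repeated a transcript and were dropped. Transcripts were summed per gene symbol, and positions and transcript types are those of GENCODE M21 on GRCm38. Genes averaging 0.5 or more were fitted as log2(signal + 0.5) in limma 3.58.1 (R 4.3.3, linear model with trended empirical Bayes moderation), and two-sided p-values were adjusted over every gene by the Benjamini-Hochberg method. The 0.5 added makes fold changes of low genes too small. Single transcripts were fitted likewise. Fits of single transcripts by litter and of transcript shares, and sums of coding transcripts alone, were added after the data had been seen. The fit was tested on simulated data. The exact permutation test used all 924 splits of the mice.

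The genes of the family and all lists (ERK targets, immediate early genes, MAP kinases, other dual-specificity phosphatases, and markers of epithelium, smooth muscle, B cells, T cells, fat, skeletal muscle, enteric neurons and glia, and myeloid cells) were chosen with earlier results of these data known. Named are all 10 genes of the family, from each list the genes past the threshold or, where none passed, the 2 with the lowest p, the 3 genes most correlated with each member that averages at least 1, and Spry2. Some items that this rule names are not reported here. Each mouse counts as 1 sample. Promoter sequences are from RefSeq. Python 3.11.15, NumPy 2.4.6, pandas 2.3.3 and matplotlib 3.10.9 were used. Alternatives were the pseudocount (0.1 and 1), the filter, the scaling, sex and litter as terms, females or 1 litter or genotype alone, the most abundant transcript, and leaving out each mouse.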

Additional observations from a re-analysis of the deposited data

Results flagged for a closer look

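Of 26 groups of 6 mice that were searched for a mouse far from the rest (each member, the nuclear and cytoplasmic sums and their ratio, in each genotype), 1 held such a mouse by Dixon's 95% criterion, where chance gives about 1 in 20. Dusp2 was 7.42 normalized TPM in replicate 4 of the Spry2IEKO group, a female of litter A, and between 0.385 and 2.56 in the other 5 Spry2IEKO mice. The same mouse had the highest sums of B cell (464), T cell (82.1) and myeloid markers (577) of the 12, and their part in its Dusp2 value was not tested. Without it the log2 fold change of Dusp2 between genotypes was 0.15.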

How the results depend on the processing

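The labels match no single mouse of one genotype to a mouse of the other. Each litter held 3 mice of each genotype, so litter could be fitted as a term, which the main genotype fit left out. With that term 6 genes passed between genotypes, and no phosphatase gene was among them. Depth is not part of the values, so none of the limits below can be set against it. No phosphatase gene passed between genotypes under any of the 25 alternatives fitted by limma, and Dusp2, Dusp4 and Dusp6 kept their direction in them, as Dusp2, Dusp4, Dusp8 and Dusp16 did between litters. The 5 genes past the threshold between genotypes became 1 without the filter, 2 with quantile normalization, 1 with sex as a term, 2 in females alone, 2 with the most abundant transcript, 2 with coding transcripts alone (added after the data had been seen), and 1 within either litter. Exact permutation gave 0, with 960 genes at an unadjusted p under 0.05, but its smallest p of 0.00216 passes only if at least 688 genes reach it, and 64 did, so this count says nothing about stability. Leaving out 1 mouse gave between 1 and 11, the latter without Spry2IEKO replicate 8. The 696 genes between litters became 422 without the filter, 1456 with equal totals, 462 with quantile normalization, 1100 with coding transcripts alone, 1 in females alone, 2 in Spry2FF mice and 1 in Spry2IEKO mice. Exact permutation gave 0 here too, with 3355 at an unadjusted p under 0.05 and 591 at the smallest p, which is likewise too few. Leaving out 1 mouse gave between 178 and 957. Between litters 1 phosphatase gene, Dusp4, passed with equal totals and 0 to 1 with 1 mouse left out.

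Between genotypes the sign turned for Dusp1 with the most abundant transcript (0.072), coding transcripts alone (0.072) and litter A (0.036), and for Dusp7 with the most abundant transcript (-0.12), coding transcripts alone (-0.16) and litter B (-0.19). It turned for Dusp8 in litter A (0.042), for Dusp10 with quantile normalization (-0.011) and in litter B (-0.12), and for Dusp16 with the most abundant transcript (-0.026) and within litter B (-0.050). Leaving out 1 mouse took Dusp5 from -0.11 to 0.020, Dusp8 from -0.14 to 0.045 and Dusp16 from -0.016 to 0.087. Between litters the sign turned for Dusp1 in females (-0.10) and in Spry2IEKO mice (-0.13), and for Dusp5 with quantile normalization (0.065), in females (0.088) and in Spry2IEKO mice (0.0063). It turned for Dusp6 with equal totals (-0.058), in females (-0.022), with the most abundant transcript (-0.018) and in Spry2IEKO mice (-0.072), for Dusp7 in Spry2FF mice (0.20), and for Dusp10 with quantile normalization (0.051) and in Spry2FF mice (0.12). With 1 mouse left out, Dusp5 ran from -0.11 to 0.041, Dusp6 from -0.049 to 0.086, Dusp7 from -0.31 to 0.048 and Dusp10 from -0.17 to 0.0029. The difference of the nuclear to cytoplasmic ratio, -0.45, was 0.060 with every gene counted equally, -0.18 without Dusp1 and -0.52 to -0.39 with 1 mouse left out. The causes were not tested.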
